A study of Mus musculus with 18 samples.

Results

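Genes that macrophages use to recognise and swallow apoptotic cells were followed through 18 libraries of cultured peritoneal macrophages: the receptor tyrosine kinase genes Mertk, Axl and Tyro3, the bridging molecule genes Gas6, Pros1 and Mfge8, the complement genes C1qa, C1qb and C1qc, and the adaptor gene Gulp1. They were chosen by symbol for their known roles, with earlier results of these data known, which limits what counts of calls among them can show. They make up 10 of the 21831 genes in the count table. All 10 were among the 13409 genes with enough counts to be tested. The cells came from 6-week-old C57BL/6 mice injected with 1 mL of 3% thioglycollate, an irritant that recruits macrophages to the peritoneal cavity, 3 days earlier. After 4 h of attachment they received for 12 h either 20 µM PCN (pregnenolone 16alpha-carbonitrile, a ligand of mouse PXR, a nuclear receptor that senses foreign compounds) or the solvent DMSO.

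FF_DMSO and FF_PCN (n = 3 libraries each) came from mice with floxed PXR alleles, which served as controls, and dMye_DMSO and dMye_PCN (n = 6 each) from mice whose label marks a myeloid deletion of PXR. No group was wild type. The labels do not name the Cre driver and do not state whether each library is a different mouse or culture. The p-values thus refer to the variation among the libraries, which could be technical in part. Replicate numbers below only name libraries.

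Library totals ran from 21993687 to 30228032 expected counts, so that 1 CPM (the count scaled to the library total) stood for 22 to 30.2 counts. Nr1i2, the PXR gene, had at most 3 counts in a library, which gave no check of the genotype. The Y-linked gene Ddx3y was at 43.7 to 62.7 CPM in the 6 FF libraries and at most 0.475 in the 12 dMye libraries, so sex followed genotype and the effects of both cannot be told apart in any comparison of dMye with FF. Macrophage markers were high in every library, with 8 of 8 tested and a summed level of 6130 to 10800 CPM. Scaled by upper quartiles in place of TMM, the calls over all genes shifted downwards for PCN against DMSO (FF, from 915 higher and 936 lower to 704 and 1140; dMye, from 126 and 153 to 85 and 187). The same scaling shifted them upwards for dMye against FF, from 1869 higher and 1052 lower to 2117 and 669 under DMSO and from 2176 and 1526 to 2528 and 852 under PCN.

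Clearance of apoptotic cells, or efferocytosis, begins when a dying cell exposes phosphatidylserine on its surface. Soluble bridging molecules bind this lipid and are held by receptors on the phagocyte: Gas6 and protein S by the TAM receptors Tyro3, Axl and MerTK, and MFG-E8 by integrins. C1q, the recognition unit of the classical complement pathway, also coats apoptotic cells, and adaptors such as GULP1 link some engulfment receptors to uptake. Macrophages need efferocytosis to remove spent cells without inflammation, and in atherosclerosis its failure is known to leave dead cells in the plaque.

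PCN lowered 4 of the 10 genes in FF macrophages, namely Mertk, Axl, Gas6 and Pros1, to between 0.684 and 0.846 of their level under DMSO, and raised none. The percentage of all tested genes called lower in that comparison was 6.98% and of those called higher 6.82%. In dMye macrophages Pros1 alone of the 10 was called lower and none higher, against 1.14% of all genes lower and 0.94% higher. The difference between the PCN effects, tested as an interaction, was called for Axl alone, which moved upwards in dMye relative to FF, where 0.746% of genes were called in that direction and 0.671% in the other. Between genotypes, 8 of the 10 genes were higher and none lower in dMye under DMSO, against 13.9% and 7.85% of all genes, and 9 were higher and Mfge8 lower under PCN, against 16.2% and 11.4%. One of these genes, Tyro3, passed the count filter through the dMye libraries (12 of 12, against 1 of 6 in FF), which favoured its call from the start; among the other 9 genes 7 were higher under DMSO and 8 under PCN. A gene is called where the Benjamini-Hochberg adjusted p of edgeR's quasi-likelihood test over all 13409 genes is under 0.05. The comparisons share groups: each DMSO and PCN group enters 2 of these contrasts besides the interaction.

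**Figure D1:**
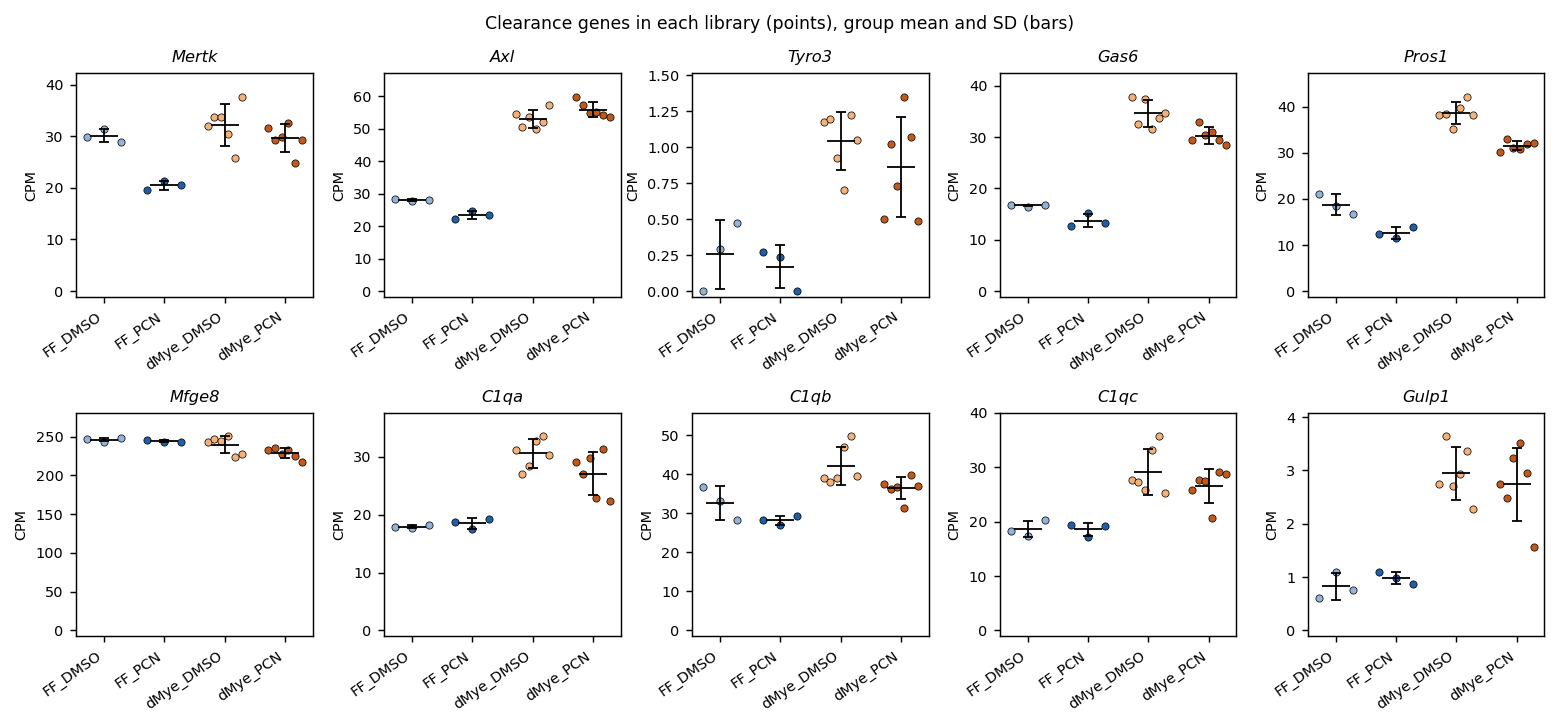
Level of each of the 10 genes in CPM (y axis, linear, a scale of its own in each panel) in the 4 groups (x axis), with 1 point per library and bars for the group mean and SD. Mertk stands apart in FF_PCN, between 19.6 and 21.4 CPM, and Axl, Gas6 and Pros1 are higher in all 12 dMye libraries than in any FF library.

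Mertk encodes the TAM receptor that carries most of the uptake of apoptotic cells by macrophages in many tissues. It lies on chromosome 2, from 128698956 to 128802894 on the plus strand of GRCm38. In FF_DMSO it stood at 29.9, 31.5 and 28.9 CPM and in FF_PCN at 19.6, 21.4 and 20.5 CPM. Every PCN library lay below every DMSO library. The log2 fold change was -0.53 (SE 0.10, adjusted p = 0.000802), a level 0.692 of that under DMSO. In dMye_DMSO the lowest, median and highest libraries were at 25.7, 32.8 and 37.7 CPM, and in dMye_PCN at 24.8, 29.6 and 32.6 CPM. These groups overlapped, and the log2 fold change of -0.12 (95% confidence interval -0.27 to 0.02, adjusted p = 0.42) was not called. The PCN effect in dMye minus that in FF was 0.41 on the log2 scale (interval 0.16 to 0.66), with an adjusted p of 0.098, so a difference between genotypes in the response of Mertk was not called.

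Mertk was also the TAM gene whose level under DMSO did not separate the genotypes. The groups overlapped and dMye minus FF was 0.07 on the log2 scale (interval -0.11 to 0.24, adjusted p = 0.60). Under PCN, where the FF libraries had fallen, all 6 dMye libraries lay above all 3 FF libraries and the difference was 0.48 (SE 0.09, adjusted p = 0.00025). Within dMye_DMSO the lowest library for Mertk was replicate 5 and the highest replicate 6. Macrophage markers moved with the fall of Mertk in FF: 5 of 8 were called lower with PCN (6.98% of all genes), among them Csf1r, the receptor for macrophage colony-stimulating factor, at -0.39 (SE 0.05, adjusted p = 2.3e-05), and Adgre1, which encodes F4/80, at -0.25 (SE 0.06, adjusted p = 0.0040). The summed level of these 8 markers, most of it from Lyz2, fell from between 10000 and 10800 CPM to between 7130 and 7630 in FF. In dMye_DMSO and dMye_PCN it was at 6660 to 8310 and 6130 to 6680 CPM. Lyz2 also made up most of the fall in FF, from 7140 ± 324 to 4390 ± 317 CPM. Cd68, the next highest of the 8, was at 2550 ± 45.9 and 2480 ± 56 CPM in FF and was not called. Some markers of other cells were called lower with PCN in FF too. Of 6 B cell markers 4 were called lower (median log2 fold change -0.995), with a sum of 16.0 to 21.4 CPM in FF_DMSO and 7.29 to 11 in FF_PCN. So were 2 of 5 proliferation markers (sums of 25.0 to 26.4 and 17.9 to 20.3 CPM) and 2 of 6 tested neutrophil markers (158 to 162 and 120 to 130 CPM). Among the proliferation markers the mean of Ccnb1 was higher in FF_PCN (4.07 ± 0.536 and 4.44 ± 0.447 CPM), and it was not called. Most of the neutrophil sum was Csf3r (122 ± 2.33 and 98.5 ± 3.96 CPM), called lower with Mmp8. Ly6g had no counts in any library, and S100a8 was at 2.07 ± 0.684 and 1.65 ± 0.422 CPM. The means of Mmp9 and Cxcr2 were higher in FF_PCN, and neither was called. The part of these markers in the result for Mertk was not tested, and in bulk RNA fewer cells of a type and less RNA per cell cannot be told apart.

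The stretches upstream of Mertk, Axl, Gas6 and Pros1 are shown because these 4 genes fell with PCN in FF. They hold the 250 bases before the RefSeq start site (GRCm38.p6), 5′ to 3′ on the strand of the gene, with motif matches in capitals. Mertk lies at chr2:128698665-128698914 (plus strand) and Axl at chr7:25788734-25788983 (minus strand). Gas6 lies at chr8:13494536-13494785 (minus strand) and Pros1 at chr16:62854057-62854306 (plus strand).
Mertk: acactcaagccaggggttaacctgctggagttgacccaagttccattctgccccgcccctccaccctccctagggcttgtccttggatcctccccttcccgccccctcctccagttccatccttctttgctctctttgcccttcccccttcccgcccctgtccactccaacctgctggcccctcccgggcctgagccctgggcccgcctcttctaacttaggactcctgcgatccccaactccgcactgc
Axl: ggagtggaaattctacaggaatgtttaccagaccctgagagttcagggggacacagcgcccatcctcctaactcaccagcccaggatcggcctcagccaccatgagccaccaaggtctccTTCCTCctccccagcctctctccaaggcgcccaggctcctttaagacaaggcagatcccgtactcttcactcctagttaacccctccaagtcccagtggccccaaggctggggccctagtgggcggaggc
Gas6: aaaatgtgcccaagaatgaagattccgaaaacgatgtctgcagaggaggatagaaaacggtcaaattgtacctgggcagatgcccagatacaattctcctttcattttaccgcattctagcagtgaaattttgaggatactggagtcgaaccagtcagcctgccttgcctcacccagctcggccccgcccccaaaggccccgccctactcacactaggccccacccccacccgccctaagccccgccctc
Pros1: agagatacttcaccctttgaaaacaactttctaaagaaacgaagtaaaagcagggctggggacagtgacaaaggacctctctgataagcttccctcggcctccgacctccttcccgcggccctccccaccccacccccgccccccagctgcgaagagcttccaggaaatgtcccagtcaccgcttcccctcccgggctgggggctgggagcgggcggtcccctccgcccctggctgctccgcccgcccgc
The motifs searched on both strands were AGGTCA, the half-site of many nuclear receptors, GAGGAA, the core of sites for the myeloid factor PU.1, and TGCTGA, a half-site of Maf factors, none overlapping another. Over all 32851 mouse promoters of this length, 14% held the first, 23.3% the second and 16.1% the third. The capitals in Axl are GAGGAA on the opposite strand, 130 to 125 bases before the start. The windows of Mertk, Gas6 and Pros1 held none of the 3 motifs, and no window of the 9 genes with a RefSeq entry held 2 copies of AGGTCA in the same direction with 4 or 3 bases between them, repeats that occurred in 5 and 2 of all promoters. A match or its absence describes these letters only.

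Axl, the second TAM receptor, is known to be induced in inflamed tissue and binds Gas6 above other ligands. It lies on chromosome 7, from 25757273 to 25788705 on the minus strand. The FF_DMSO libraries were at 28.5, 27.9 and 28.0 CPM and the FF_PCN libraries at 22.2, 24.7 and 23.4 CPM, without overlap. The fall was -0.24 on the log2 scale (SE 0.06, adjusted p = 0.0121). The dMye_DMSO libraries spanned 49.8 to 57.2 CPM with a median of 52.8, and the dMye_PCN libraries 53.7 to 59.9 CPM with a median of 55.0. There PCN gave 0.08 (interval -0.01 to 0.16, adjusted p = 0.41), which was not called. The effects differed by 0.32 (SE 0.08, interval 0.16 to 0.48, adjusted p = 0.037). Axl was 1.85 times higher in dMye than in FF under DMSO (log2 0.89, SE 0.06, adjusted p = 3.3e-11) and 2.3 times higher under PCN (log2 1.20, SE 0.06, adjusted p = 2.3e-13), with no overlap in either case. Leaving out FF_PCN replicate 1 ended the call of the fall in FF (adjusted p = 0.0547). The interaction was not called by limma-voom (adjusted p = 0.0501) or without any 1 of FF_DMSO 1, 2 or 3, FF_PCN 1 or 3, dMye_DMSO 2 and dMye_PCN 1 or 2, where adjusted p ran up to 0.103.

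Tyro3 encodes the TAM receptor best known from the nervous system. It lies on chromosome 2 as well, from 119797733 to 119818104 on the plus strand, 8.88 megabases from Mertk. Its counts were near the limit of detection: 0, 0.293 and 0.473 CPM in FF_DMSO, where 0.473 CPM was 13 counts, and 0.272, 0.238 and 0 CPM in FF_PCN. The dMye_DMSO libraries ran from 0.703 to 1.23 CPM (18 to 36 counts, median 1.11 CPM) and the dMye_PCN libraries from 0.49 to 1.35 CPM (11 to 32 counts, median 0.88 CPM). All dMye libraries lay above all FF libraries of the same treatment, and 12 of 12 dMye but 1 of 6 FF libraries reached the filter's limit of 0.39 CPM. The fitted difference was 1.96 (SE 0.59, adjusted p = 0.021) under DMSO and 2.25 (SE 0.65, adjusted p = 0.012) under PCN. Leaving out FF_DMSO 1 or 2 (adjusted p = 0.084 and 0.061) or FF_PCN 3 (adjusted p = 0.0613) ended these calls. A PCN effect on Tyro3 was not detectable at this depth in either genotype, with intervals of -2.21 to 1.08 in FF and -1.12 to 0.57 in dMye.

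**Figure D2:**
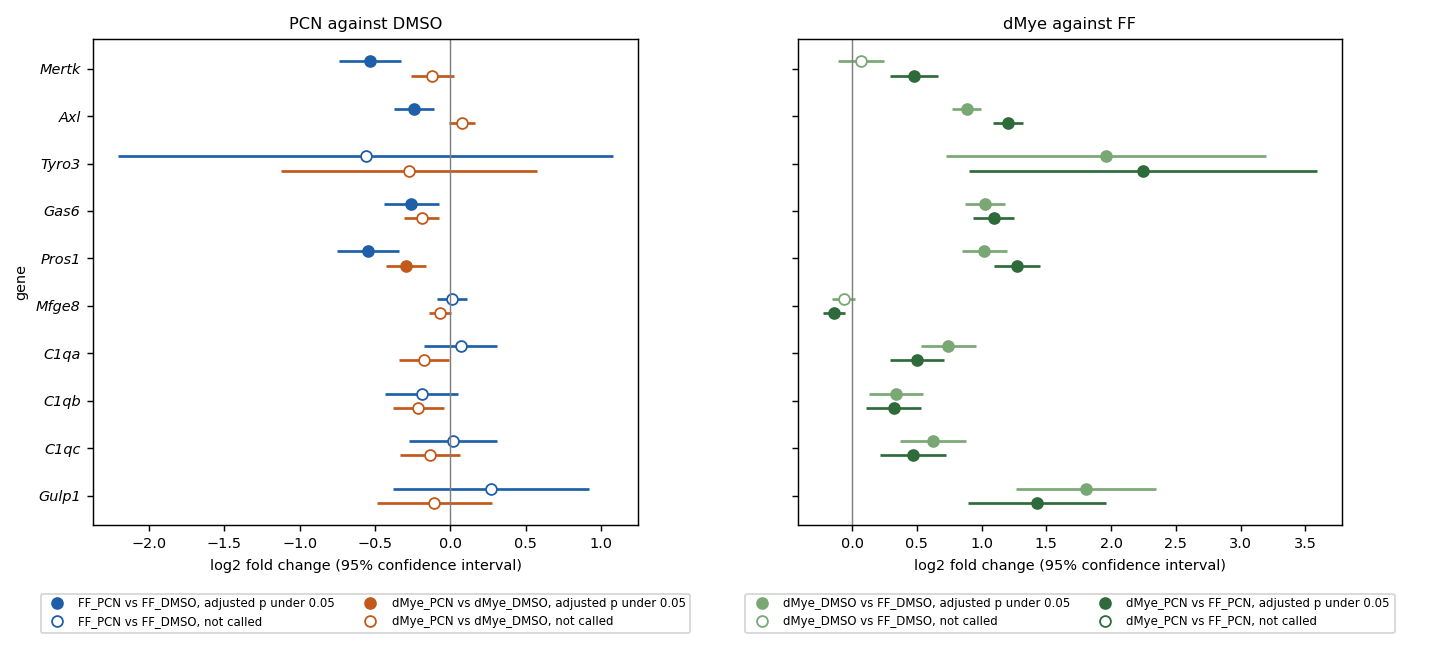
Log2 fold change of each gene (x axis) with its 95% confidence interval, for PCN against DMSO in each genotype (left) and for dMye against FF under each treatment (right), with filled points where the adjusted p is under 0.05. On the left the filled points are Mertk, Axl, Gas6 and Pros1 in FF and Pros1 in dMye, all below 0, and on the right all filled points but Mfge8 under PCN lie above 0.

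Gas6, a vitamin K-dependent protein that binds all TAM receptors, is encoded on chromosome 8 from 13465374 to 13494490, minus strand. FF_DMSO held it at 16.8, 16.5 and 16.8 CPM and FF_PCN at 12.7, 15.1 and 13.3 CPM, so that no libraries overlapped. At a log2 fold change of -0.26 (SE 0.09, adjusted p = 0.0499) Gas6 had the largest p of the 1851 genes called in FF. It was not called in 15 of 27 alternative settings, among them no filter (adjusted p = 0.0507), limma-voom (0.087), FF libraries alone (0.0729) and the removal of any 1 FF library but FF_PCN 2, with adjusted p up to 0.172. In dMye_DMSO it ran from 31.5 to 37.9 CPM with a median of 34.2, and in dMye_PCN from 28.5 to 33.0 CPM with a median of 29.9. These overlapped, and the log2 fold change of -0.19 (interval -0.31 to -0.07) had an adjusted p of 0.087. The effects in both genotypes differed by 0.07 (interval -0.15 to 0.28, adjusted p = 0.87). Gas6 was 2.04 times higher in dMye under DMSO (log2 1.03, SE 0.08, adjusted p = 5.7e-10) and 2.14 times higher under PCN (log2 1.09, SE 0.08, adjusted p = 2.5e-10), each without overlap. Its locus overlaps Tmem255b on the opposite strand, which had 0 counts in every library.

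Pros1 was the gene that PCN lowered in both genotypes. It encodes protein S, a cofactor in anticoagulation and a ligand of MerTK and Tyro3, on chromosome 16 from 62854307 to 62929346, plus strand. The libraries were at 21.1, 18.4 and 16.7 CPM in FF_DMSO and at 12.4, 11.5 and 14 CPM in FF_PCN. In dMye_DMSO they ran from 35.1 to 42.2 CPM around a median of 38.3, and in dMye_PCN from 30.3 to 32.9 CPM around a median of 31.5. Neither pair of groups overlapped. The log2 fold changes were -0.55 in FF (SE 0.10, adjusted p = 0.00054) and -0.30 in dMye (SE 0.06, adjusted p = 0.017), and both calls held in all 27 alternative settings. The effects differed by 0.25 (interval 0.01 to 0.49, adjusted p = 0.37), which was not called. Against FF, dMye macrophages had 2.03 times the level under DMSO (log2 1.02, SE 0.08, adjusted p = 3.9e-09) and 2.42 times under PCN (log2 1.27, SE 0.09, adjusted p = 1.9e-10).

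Axl, Gas6, Pros1, Tyro3 and Gulp1 were all higher in dMye. Markers of other cells differed between genotypes too, some higher and some lower in dMye. All 9 mesothelial markers, none of them at 0 in a whole group, were called higher in dMye under both treatments (13.9% and 16.2% of all genes), 1 of which, Muc16, passed the filter through dMye libraries only, with summed levels of 21.5 to 24.4 CPM in FF_DMSO, 18.3 to 19.2 in FF_PCN, 119 to 135 in dMye_DMSO and 105 to 129 in dMye_PCN. Of 10 fibroblast markers, 9 were tested and 6 were called higher in dMye under each treatment (5 of 7 without the genes that passed through dMye libraries), with Thy1 lower under DMSO. Their sums were 173 to 176, 139 to 156, 539 to 716 and 560 to 651 CPM in the same order of groups. Both sums also lay lower in FF_PCN than in FF_DMSO without overlap, as Axl and Gas6 did, although of these 19 markers Wt1 alone was called there (log2 -0.65, adjusted p = 0.0035). Proliferation markers were higher as well, 5 of 5 under each treatment, from 25.0 to 26.4 CPM in FF_DMSO to 57.4 to 69.4 in dMye_DMSO. Lymphocyte markers went the other way under DMSO: 5 of 6 B cell markers were called lower in dMye (median -1.90, sums of 16.0 to 21.4 CPM in FF_DMSO and 5.30 to 7.46 in dMye_DMSO) and 4 of 6 T cell markers (median -1.33, sums of 4.97 to 6.93 and 2.03 to 3.71 CPM), against 7.85% of all genes. Of those 4, Cd3e, Cd3g and Cd4 passed the filter through FF libraries. Also called lower under DMSO were 3 of 6 tested neutrophil markers and 2 of 6 tested dendritic cell markers, with none higher. Of the 8 macrophage markers 2 were called higher and 2 lower in dMye under DMSO, against 13.9% and 7.85% of all genes. Under PCN 5 were higher and 1, Lyz2, was lower, against 16.2% and 11.4%. The part of the cells behind these markers in the results was not tested.

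**Figure D3:**
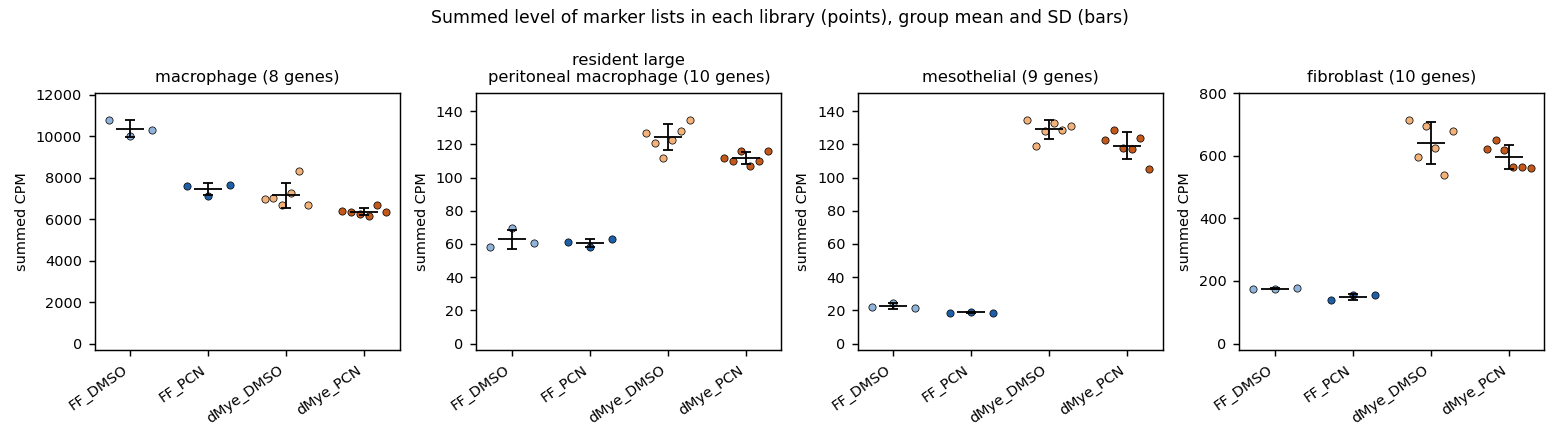
Summed CPM of 4 marker lists (y axis, linear, a scale of its own in each panel) in the 4 groups (x axis), with 1 point per library and bars for the mean and SD. The mesothelial sum is at 18.3 to 24.4 CPM in FF libraries and 105 to 135 in dMye libraries. The macrophage sum, most of it from Lyz2, is highest in FF_DMSO. Lyz2 is at 7140 ± 324 CPM there, and at 4390 ± 317, 4060 ± 646 and 3270 ± 278 in FF_PCN, dMye_DMSO and dMye_PCN.

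Mfge8 encodes MFG-E8, which binds phosphatidylserine and integrins of the alpha-v type. It lies on chromosome 7 from 79133768 to 79149060, minus strand, and was the steadiest of the 10 genes, at 218 to 251 CPM over all 18 libraries. The FF_DMSO libraries were at 247, 243 and 248 CPM and the FF_PCN libraries at 245, 243 and 243 CPM. Medians were 244 CPM in dMye_DMSO (224 to 251) and 230 CPM in dMye_PCN (218 to 235). PCN changed it by 0.01 in FF (interval -0.09 to 0.11, adjusted p = 0.94), a sign that turned with upper-quartile scaling (-0.03), and by -0.07 in dMye (interval -0.14 to 0.00, adjusted p = 0.36). Under PCN all 6 dMye libraries were below all FF libraries, by 0.14 on the log2 scale (log2 fold change -0.14, SE 0.04, adjusted p = 0.014). That call was lost with upper-quartile scaling (adjusted p = 0.145) and without FF_PCN 1 (adjusted p = 0.0508).

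The 3 genes of C1q form a cluster of 18.7 kb on chromosome 4, from 136880129 to 136898803, all on the minus strand and with no other annotated gene inside. C1qb runs from 136880129 to 136886187, C1qc from 136889804 to 136893065 and C1qa from 136895917 to 136898803. They encode the A, B and C chains, which assemble into 1 protein, and macrophages are a main source of it. The sequences upstream of C1qb and C1qc are given because both genes were called higher in dMye than in FF under each treatment. C1qb is chr4:136886201-136886450 and C1qc chr4:136893066-136893164, both minus strand, the second limited to the 99 bases outside the annotated C1qc gene.
C1qb: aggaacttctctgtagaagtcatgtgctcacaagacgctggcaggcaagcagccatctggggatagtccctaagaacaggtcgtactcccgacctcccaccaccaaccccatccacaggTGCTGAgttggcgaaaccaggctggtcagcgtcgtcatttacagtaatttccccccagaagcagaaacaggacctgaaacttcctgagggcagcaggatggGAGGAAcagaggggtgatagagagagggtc
C1qc: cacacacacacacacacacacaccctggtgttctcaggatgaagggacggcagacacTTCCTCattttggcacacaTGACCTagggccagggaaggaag
Capitals mark TGCTGA at 131 to 126 and GAGGAA at 30 to 25 bases before the C1qb start, and in C1qc GAGGAA (printed as TTCCTC) and AGGTCA (printed as TGACCT) on the opposite strand, 193 to 188 and 174 to 169 bases before the RefSeq start. C1qa had no entry in that table.

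C1qa stood at 17.9, 17.6 and 18.2 CPM in FF_DMSO and at 18.7, 17.4 and 19.3 CPM in FF_PCN. The dMye_DMSO libraries ran from 27.1 to 33.6 CPM (median 30.7) and the dMye_PCN libraries from 22.4 to 31.3 CPM (median 28.1). PCN gave overlapping groups in each genotype, while no dMye library reached down to an FF library. C1qa was 1.67 times higher in dMye under DMSO (log2 0.74, SE 0.10, adjusted p = 8.6e-06) and 1.42 times under PCN (log2 0.50, SE 0.10, adjusted p = 0.00069).

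C1qc had a like pattern, with 18.3, 17.4 and 20.3 CPM in FF_DMSO and 19.3, 17.1 and 19.2 CPM in FF_PCN. In dMye it ran from 25.3 to 35.8 CPM (median 27.5) under DMSO and from 20.6 to 29.1 CPM (median 27.6) under PCN. The genotypes did not overlap, at log2 differences of 0.62 (SE 0.12, adjusted p = 0.0007) and 0.47 (SE 0.12, adjusted p = 0.0065). C1qb differed least: 36.8, 33.1 and 28.3 CPM in FF_DMSO, 28.3, 27 and 29.4 CPM in FF_PCN, medians of 39.4 CPM in dMye_DMSO (38.1 to 49.9) and 36.9 CPM in dMye_PCN (31.3 to 39.9). Its genotype differences of 0.34 (SE 0.10, adjusted p = 0.017) and 0.32 (SE 0.10, adjusted p = 0.022) were each lost without 1 of 2 libraries, FF_DMSO 2 or 3 (adjusted p = 0.0536 and 0.161) and FF_PCN 1 or 2 (adjusted p = 0.0572 and 0.0938).

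None of the C1q genes was called for PCN in either genotype or for the interaction. In FF the log2 fold changes were 0.07 for C1qa (interval -0.18 to 0.31), -0.19 for C1qb (-0.43 to 0.05) and 0.02 for C1qc (-0.28 to 0.31), the last with a sign that turned under upper-quartile scaling (-0.02). In dMye they were -0.18 (interval -0.34 to -0.01), -0.21 (-0.38 to -0.04) and -0.14 (-0.34 to 0.06), with adjusted p of 0.29, 0.20 and 0.54. In dMye_DMSO the 3 genes shared their highest libraries. Replicate 5 was the highest of its group for all 3 genes and replicate 4 the next highest. In dMye_PCN replicate 5 was also the highest for all 3. There, though, replicate 6 was lowest for C1qa (22.4 CPM) and above the median for C1qc (28.8 CPM). FF_DMSO replicate 3 was highest for C1qa and C1qc and lowest for C1qb. Markers of resident large peritoneal macrophages, the cells present in the cavity before thioglycollate, moved with C1q between genotypes: 7 of 10 were called higher in dMye under DMSO and 10 of 10 under PCN (13.9% and 16.2% of all genes). Timd4, Garnl3 and Cd163 passed the filter through dMye libraries, and of the other 7 markers 6 and 7 were higher. Their summed level was 58.0 to 69.4 CPM in FF_DMSO, 58.3 to 63.1 in FF_PCN, 112 to 135 in dMye_DMSO and 107 to 116 in dMye_PCN, none of the 10 at 0 in a whole group. Their part in the result was not tested.

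Gulp1, on chromosome 1 from 44551511 to 44796838 on the plus strand, encodes an adaptor that binds the tails of engulfment receptors such as LRP1. It was scarce, at 0.606, 1.10 and 0.764 CPM in FF_DMSO (15 to 30 counts) and 1.09, 0.991 and 0.867 CPM in FF_PCN. The dMye_DMSO libraries ran from 2.27 to 3.65 CPM and the dMye_PCN libraries from 1.56 to 3.51 CPM, with medians of 2.84 CPM in both groups. No FF library reached the lowest dMye library. Gulp1 was 3.5 times higher in dMye under DMSO (log2 1.81, SE 0.26, adjusted p = 1.9e-05) and 2.69 times under PCN (log2 1.43, SE 0.26, adjusted p = 0.00021), calls that held in all 26 alternative settings. PCN left wide intervals, of -0.38 to 0.92 in FF and -0.49 to 0.27 in dMye.

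Levels of different genes were set side by side per kilobase of exon, on a linear CPM scale. Mfge8 was the highest in all 4 groups, at 52.4 ± 0.482 CPM per kb in FF_DMSO and 51.0 ± 2.34 in dMye_DMSO (mean ± SD). C1qb followed at 30.1 ± 3.95 and 38.7 ± 4.56, then C1qa at 17.2 ± 0.275 and 29.4 ± 2.38 and C1qc at 9.66 ± 0.771 and 15.1 ± 2.21. The order below them changed with genotype. In FF_DMSO it was Mertk (6.94 ± 0.295), Gas6 (6.54 ± 0.0673), Axl (5.59 ± 0.0634) and Pros1 (4.59 ± 0.548), and in dMye_DMSO Gas6 (13.6 ± 1.01), Axl (10.5 ± 0.54), Pros1 (9.46 ± 0.57) and Mertk (7.42 ± 0.921). The order was Gas6 (5.38 ± 0.505), Mertk (4.73 ± 0.21), Axl (4.65 ± 0.241) and Pros1 (3.09 ± 0.315) in FF_PCN, and Gas6 (11.9 ± 0.625), Axl (11.1 ± 0.467), Pros1 (7.72 ± 0.245) and Mertk (6.82 ± 0.624) in dMye_PCN. Neighbours whose means lay within their summed SDs were C1qc with Gas6 in both dMye groups, Axl with Pros1 in dMye_DMSO, Gas6 with Axl in dMye_PCN, and Gas6 with Mertk and Mertk with Axl in FF_PCN. Gulp1 and Tyro3 were lowest in every group, at 0.219 ± 0.0672 and 0.0412 ± 0.0385 in FF_DMSO and 0.784 ± 0.131 and 0.169 ± 0.0325 in dMye_DMSO. With the longest transcript as the length, Axl moved above Gas6 in FF_DMSO, FF_PCN and dMye_PCN, and in FF_PCN also above Mertk.

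**Figure D4:**
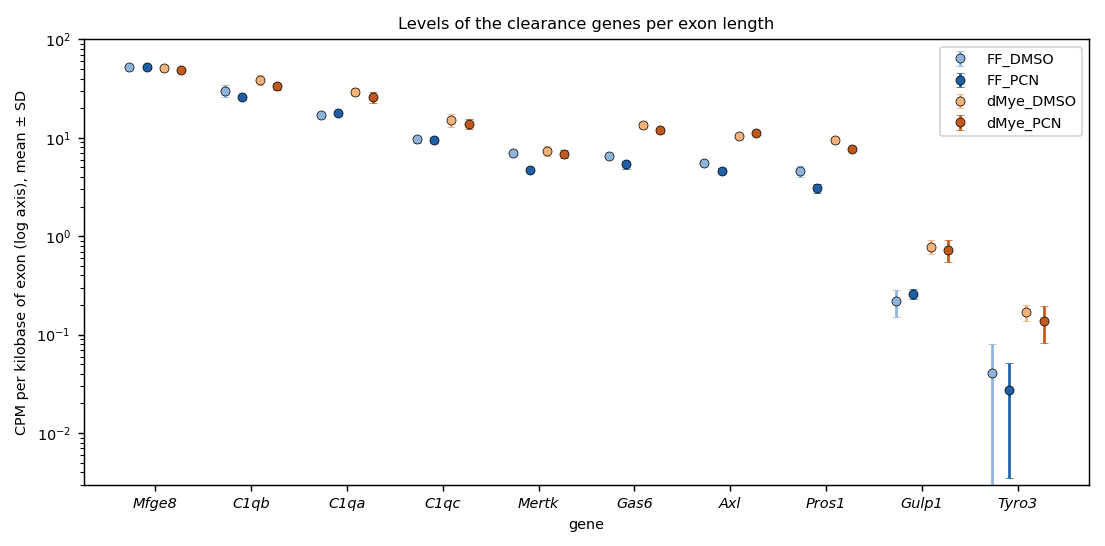
Mean CPM per kilobase of exon (y axis, log scale) with SD for each gene (x axis) in the 4 groups. Mfge8 is the highest at 48.7 to 52.4 and Tyro3 the lowest at 0.0274 to 0.169, and among the 7 genes after Mfge8 the FF_DMSO and dMye_DMSO means lie closest together for Mertk (6.94 and 7.42).

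Other genes of the pathway moved in both directions when FF macrophages received PCN. Of 17 tested receptors for apoptotic cells besides the TAM family, 5 fell and 2 rose (median log2 fold change -0.26, against 0.01 over all genes, of which 6.98% fell and 6.82% rose). Cd300lb, a lipid-binding receptor, fell by 0.42 (SE 0.07, adjusted p = 0.00014) and the integrin gene Itgb5 by 0.32 (SE 0.05, adjusted p = 0.00015), while the integrin gene Itgb3 rose by 0.59 (SE 0.11, adjusted p = 0.00091). Of 9 other bridging molecules and eat-me signals 3 fell and 1 rose (median -0.11), with Thbs1, which encodes thrombospondin, at -0.48 (SE 0.11, adjusted p = 0.0047), Anxa1 at -0.36 and the pentraxin gene Ptx3 at 0.81. Among 20 genes of engulfment signalling and the cytoskeleton 6 fell and 3 rose (median 0.02), including Elmo2 at -0.42 (adjusted p = 2.5e-05), the GTPase gene Rac2 at -0.37 and Vav1, which encodes an exchange factor, at 0.30. Corpse digestion had 3 rises and no fall in 16 genes (median 0.01), in Mcoln1 (0.19), Uvrag (0.33) and Rab5a (0.15).

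The 14 genes that sense engulfed lipid or control clearance genes had 3 falls and 3 rises in FF (median -0.01), beside 6.98% and 6.82% of all genes. Klf2, a transcription factor gene, fell by 0.60 (SE 0.08, adjusted p = 2.4e-05), and Rxrb and Ppard, which encode nuclear receptors, rose by 0.31 and 0.44. Among the falls was Nr1h3, which encodes LXRalpha, a receptor known to drive Mertk. It went from 51.6 ± 2.64 to 39.6 ± 3.06 CPM (log2 fold change -0.36, SE 0.09, adjusted p = 0.0094) and was singled out after its values were seen. Nr1h2, the other LXR gene of the list (103 ± 1.99 and 100 ± 0.957 CPM), and Rxra (101 ± 4.27 and 100 ± 1.69 CPM) were not called. The part of Nr1h3 in the result for Mertk was not tested. Partners of C1q and C1q-binding proteins had 2 falls and no rise in 9 (median -0.18), in Cd93 (-0.39) and in Calr (-0.18), which is also among the bridging molecules. Genes of don't-eat-me signals, receptor shedding and feedback had 2 falls and 2 rises in 14 (median -0.16): Cd24a fell by 0.39, and Adam17, whose protease sheds MerTK, and Socs3 rose by 0.22 and 0.45.

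In dMye macrophages PCN lowered 1.14% and raised 0.94% of all genes, where FF had 6.98% and 6.82%. Of the 17 receptors 3 fell and 1 rose (median -0.09, against -0.01 over all genes): Cd300lb (-0.22, adjusted p = 0.016), Itgb5 (-0.15) and Timd4 (-0.81) fell, and Itgb3 rose (0.31). There was 1 fall and no rise in the bridging molecules (C4b, -0.17, list median 0.00), in engulfment signalling (Elmo2, -0.18, list median -0.02), among the sensors (Klf2, -0.27, list median -0.03) and among the don't-eat-me genes (Cd24a, -0.17, list median -0.03). No gene of corpse digestion or of the C1q partners was called (medians 0.00 and -0.04). The interaction was called for 1 bridging molecule, Thbs1 (0.55, SE 0.13, adjusted p = 0.042), and for 1 sensor, Rxrb (-0.31, SE 0.07, adjusted p = 0.026), and for no gene of the receptors, engulfment signalling, corpse digestion, don't-eat-me or C1q partner lists. Over all genes it was called upwards for 0.746% and downwards for 0.671%.

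Between genotypes, complement and bridging genes were the other lists with more rises than falls in dMye under DMSO. Of 9 bridging molecules 6 were higher and 1 lower (median 0.83, against 0.02 over all genes, of which 13.9% were higher and 7.85% lower), with C4b from 69.8 ± 2.43 CPM in FF_DMSO to 158 ± 8.99 in dMye_DMSO (log2 1.16, SE 0.05, adjusted p = 9.1e-14), C3 from 89.2 ± 6.29 to 206 ± 16.2 (log2 1.18, adjusted p = 1.8e-10) and Ptx3 from 1.82 ± 0.394 to 6.5 ± 0.609. Of the 9 C1q partners 5 were higher and 1 lower (median 0.17). C1s1, a protease of the C1 complex, rose from 3.16 ± 0.313 to 14.8 ± 0.697 CPM (log2 2.21, SE 0.10, adjusted p = 3.2e-13), and its inhibitor gene Serping1 from 1.70 ± 0.183 to 8.94 ± 1.31 (log2 2.37, SE 0.23). C2 rose by 2.07. These are genes that the mesothelial and fibroblast markers above moved with, and that part was not tested.

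In the remaining lists falls equalled or outnumbered rises in dMye under DMSO, beside 13.9% of all genes higher and 7.85% lower. Among the 17 receptors 3 were higher and 4 lower (median -0.08): Marco was higher by 1.53 and Timd4, which passed the filter through dMye libraries only, by 3.41, and Cd36 was lower (log2 difference -0.39). Engulfment signalling had 3 higher and 5 lower of 20 (median -0.06), with Bcar1 at 1.68, Ptk2 at 0.49 and Vav3 at -0.43. Corpse digestion had none higher and 3 lower of 16 (median -0.05), the sensors 1 and 1 of 14 (median -0.02) and the don't-eat-me genes 1 and 2 of 14 (median -0.06), the rise being that of Twist1, which passed through dMye libraries only. Under PCN the counts higher and lower were 5 and 2 for the receptors (median 0.05), 6 and 1 for the bridging molecules (0.99), 5 and 5 for engulfment signalling (0.04) and 0 and 4 for corpse digestion (-0.06). They were 2 and 4 for the sensors (-0.01), 3 and 2 for the don't-eat-me genes (0.01) and 5 and 0 for the C1q partners (0.29), against a median of 0.00 over all genes, of which 16.2% were higher and 11.4% lower. Of these rises Timd4 among the receptors and Twist1 and Twist2 among the don't-eat-me genes had passed through dMye libraries only.

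**Figure D5:**
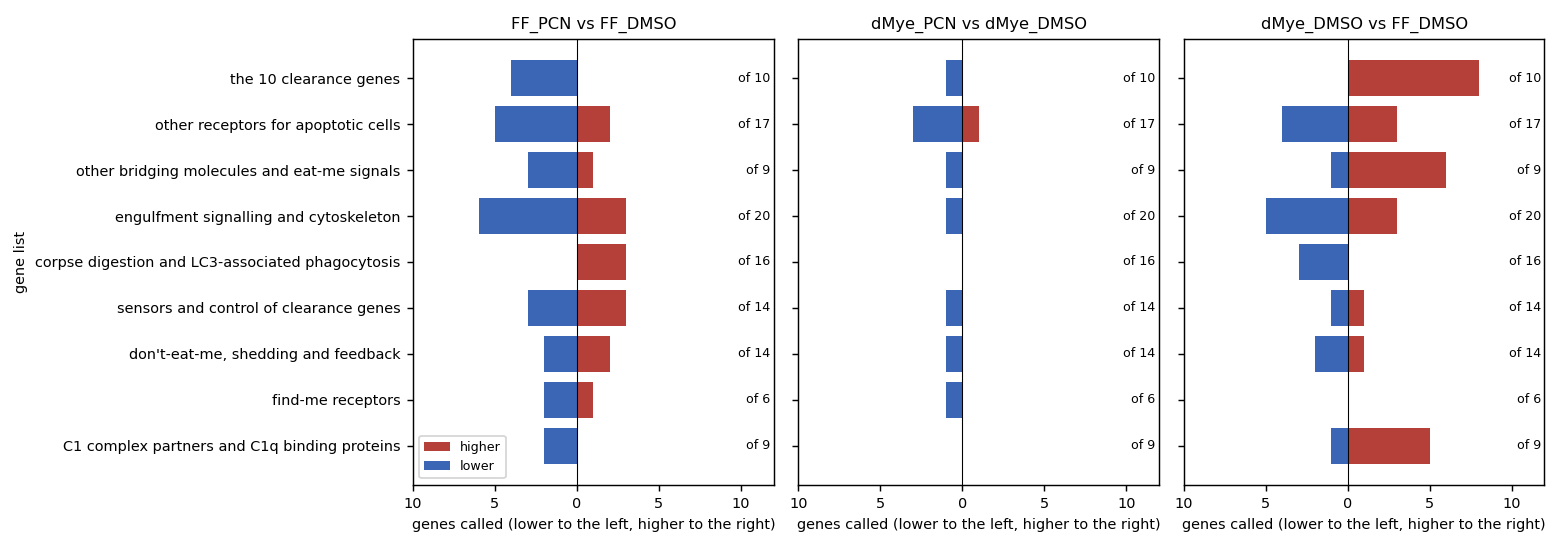
Number of genes called in each list (x axis, lower to the left and higher to the right of 0) for 3 comparisons, with the number tested at the right edge. The 10 genes lie on the lower side for PCN in FF (4) and on the higher side for dMye against FF under DMSO (8), where the other bridging molecules (6 of 9) and the C1q partners (5 of 9) do too.

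The genes whose patterns were most like those of 3 members were found from the root mean square difference of log2 levels over all 18 libraries, each gene centred on its own mean. Nearest to Mertk were Ceacam1 (0.085), Myadm (0.097) and B4galt6 (0.099). Nearest to Axl were Olfr1033 (0.115), Ccnd2 (0.116) and Cd276 (0.118), and Gas6 was the fourth (0.126). C1qa was closest to Cd5l (0.101), a gene of tissue macrophages that was also in the resident macrophage list, followed by Cfp and Cfb (both 0.124), which encode complement factors of the alternative pathway. Within the 10 genes the closest pairs were Axl with Gas6 (0.126), C1qa with C1qc (0.139), C1qb with C1qc (0.164) and Gas6 with Pros1 (0.173), while Mertk differed from Axl by 0.398. These distances describe libraries that share genotype and treatment, and carry no test.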

How the data were processed

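RNA of 18 libraries in 4 groups was analysed from 1 table. A part of the genotype that all 4 groups share is not reported here. The authors deposited expected counts for each gene symbol, estimates that can have decimals. The submitters' processing notes name genome build mm10. Which aligner, quantifier and annotation they used, and whether strand was used, is not given in the sources used here, so genes that overlap on opposite strands might share reads. Axl and Mfge8 had values that were not whole in 18 of 18 libraries, while Gas6, C1qa and C1qb had none.

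Counts were rounded and filtered with filterByExpr (13409 genes left). One edgeR 4.0.16 quasi-likelihood fit (R 4.3.3, robust, TMM scaling factors of 0.9666 to 1.039) held all 4 groups without covariates, after tests on simulated data. The 5 contrasts were taken, with p adjusted over all tested genes by Benjamini-Hochberg. The biological coefficient of variation was 9.69%. SE is the absolute log2 fold change over the root of its F statistic, and intervals are 95%. CPM levels use unscaled library totals, and n is 3 in FF and 6 in dMye groups.

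Coordinates and exon lengths come from GENCODE M21 (GRCm38), matched by symbol for 10 of 10 genes, and upstream sequences from RefSeq, matched for 9. The members and lists were chosen with earlier results of these data known. Named were all 10 members, up to 3 called genes per pathway list and contrast by smallest p, and the 3 nearest genes to Mertk, Axl and C1qa with a mean of at least 1 CPM. Genes named outside that rule include Nr1h3 with Nr1h2 and Rxra for PCN in FF, Timd4 for PCN in dMye, and genes of the marker lists. Alternatives were upper-quartile or RLE scaling, no filter, a filter of 1 CPM in 6 libraries, no robust step, DESeq2 1.42.0, limma-voom (limma 3.58.1), the compared groups alone, and leaving out each of 18 libraries or dMye_DMSO 5 and 6 together.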

Additional observations from a re-analysis of the deposited data

Results flagged for a closer look

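The response of Axl to PCN differed between genotypes by the interaction test, at 0.318 on the log2 scale (dMye minus FF, SE 0.076, adjusted p = 0.037 by edgeR's quasi-likelihood test). In FF all 3 PCN libraries lay below all 3 DMSO libraries, and in dMye the groups overlapped. Over 26 alternative settings the difference kept its sign, its adjusted p ran from 0.00506 to 0.103, and it was not called in 9. Sex followed genotype, so the 2 cannot be told apart here. In 20 groups of 6 libraries (10 genes in dMye_DMSO and dMye_PCN) no library stood apart by Dixon's test at the 95% level, a test by which chance marks about 1 in 20 groups.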

How the results depend on the processing

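Of 24 calls over the 10 genes and 5 comparisons, 16 held in all alternatives run. Over the 10 genes, the 5 comparisons and the alternatives, 1252 of 1317 values kept direction and side of the threshold, 34 lost and 4 gained a call, and 27 values, none of them called, changed sign. Lost were calls of Axl and Gas6 (FF, PCN), Axl (interaction), C1qb and Tyro3 (genotype, both treatments) and Mfge8 (genotype under PCN). The cause was not tested.

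DESeq2 called 2 of the 10 genes for PCN in dMye (Gas6 added, adjusted p = 0.0372) and 590 genes in all (279 by edgeR), and 2 genes (Mertk added, adjusted p = 0.049) and 407 in all (190 by edgeR) for the interaction. By limma-voom the interaction count among the 10 was 0, with Axl at an adjusted p of 0.0501 (1 by edgeR). Without dMye_DMSO replicates 5 and 6, the lowest and highest of their group for Mertk, 179 genes were called for PCN in dMye and 2 of the 10 for the interaction (Mertk added, adjusted p = 0.0477). With dMye libraries only, 144 genes were called. Leaving out 1 library at a time, the calls for PCN in FF ran from 2 to 4 of the 10 and from 1202 to 2175 genes, for PCN in dMye from 137 to 371 genes with Pros1 called throughout, and for the interaction from 0 to 2 of the 10 and from 42 to 261 genes. The counts over all genes moved by over 1.5 times without FF_DMSO 1 (1202) for PCN in FF, without dMye_DMSO 2 (166) or dMye_PCN 3 (137), 4 (144) or 6 (167) for PCN in dMye, and for the interaction without any 1 FF library (42 to 105), dMye_DMSO 2 (119) or dMye_PCN 1 (122) or 2 (125). Without FF_PCN 1, 2 of the 10 (Mertk and Pros1) were called for PCN in FF. The genotype calls ran from 6 to 8 of the 10 under DMSO and from 8 to 10 under PCN. Mertk was also called for the interaction without dMye_PCN replicate 5 (adjusted p = 0.0388).

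No value whose sign changed was called. For PCN in FF they were C1qc at -0.018 and Mfge8 at -0.025 with upper-quartile scaling, C1qc at -0.004 and Mfge8 at -0.011 with no filter, Mfge8 at -0.003 without dMye_DMSO 5 and 6 and at -0.006 with FF libraries only. For the interaction C1qb was at 0.005 with no filter and at 0.038 without dMye_DMSO 5 and 6. Leaving out 1 library at a time, C1qc in FF ran from -0.03 to 0.068, Mfge8 in FF from -0.005 to 0.009, Tyro3 in FF from -1.123 to 0.184, Gulp1 in dMye from -0.19 to 0.008, and in the interaction C1qb from -0.1 to 0.09 and Tyro3 from -0.458 to 0.849.

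With FF libraries only Tyro3 could not be tested. No paired analysis was possible because replicate numbers were given in accession order and the labels pair no libraries. Depth limits Tyro3 and Gulp1, whose FF libraries held at most 13 and 30 counts.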

Other observations

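Receptors for find-me signals, the soluble cues by which dying cells draw phagocytes, were measured as well. Of 6 tested, PCN in FF lowered 2 and raised 1 (median log2 fold change -0.55, against 0.01 over all genes, of which 6.98% fell and 6.82% rose). P2ry6, a receptor for uracil nucleotides, fell from 7.81 ± 2.08 to 1.79 ± 0.487 CPM (log2 fold change -2.10, SE 0.22, adjusted p = 1.4e-06). P2ry2, a receptor for ATP and UTP, rose from 37.6 ± 0.562 to 48.9 ± 1.46 CPM (log2 0.40, SE 0.07, adjusted p = 0.00022). Cx3cr1, the fractalkine receptor gene, was scarce and fell from 0.571 ± 0.137 to 0.145 ± 0.0571 CPM (log2 -1.91, SE 0.63, adjusted p = 0.048).

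In dMye, where PCN lowered 1.14% of all genes, P2ry6 alone of the 6 fell, from 7.09 ± 0.625 to 4.66 ± 0.848 CPM (log2 -0.60, SE 0.14, adjusted p = 0.027). The effect of PCN differed between genotypes for P2ry6 (1.49, SE 0.26, adjusted p = 0.0062) and for P2ry2 (-0.34, SE 0.08, adjusted p = 0.039). Of all genes, 0.746% were called upwards and 0.671% downwards in that interaction. Under DMSO none of the 6 was called between genotypes. Under PCN 2 were higher in dMye and 1 lower, beside 16.2% and 11.4% of all genes.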
